A study of Oryza sativa with 8 samples.

Results

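The rice Affymetrix array used here carries probe sets for predicted genes whose IDs begin with OsAffx and are numbered in sequence. The highest-numbered stretch, IDs 32184 to 32350, holds 262 probe sets of the 57194 tested, and no OsAffx probe set has a higher number. These 262 were chosen by the number in the ID. The stretch begins just after the highest OsAffx number paired with a gene of chromosome 12. The 262 were split by the S (sense) or A (antisense) in the ID into 128 sense and 134 antisense probe sets. The stretch was picked out with values of the same 8 arrays known, so levels, differences and counts of its members are given here as a description beside the other OsAffx probe sets, and no count is read as support for anything. The comparison set was the 25238 OsAffx probe sets with lower numbers, of which 24022 are sense and 1216 antisense.

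A probe set is a group of short oligonucleotides on the array that together give 1 value for a transcript. Sense probe sets are built to detect RNA of the predicted gene's own strand, and antisense probe sets RNA of the opposite strand. An ID ending in _at marks probes meant to be unique, _s_at marks probes shared by several transcripts, and _x_at marks a set in which some probes can bind other transcripts. Probe sets differ in how strongly they bind their target, so a level says little by itself about how much of one RNA there is relative to another. Predicted genes are called from genome sequence by software, and many have no known product. None of the oligonucleotide sequences was used here.

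Arrays were hybridised with RNA from Hejiang19, a rice cultivar that served as the wild type, and from transgenic plants of that cultivar that overexpress Ghd7, named OX-Ghd7HJ19 in the labels. Ghd7 encodes a CCT-domain protein that delays heading in long days and raises plant height and grain number. Young leaves were taken from vegetative plants 35 days old, and developing panicles at a length of 0.1 cm, all from the field and at 3 hours after dawn. Each of the 4 combinations of genotype and tissue has 2 arrays, titled biological replicates. The promoter of the transgene, the number of transgenic lines and any pooling of plants are not given in the sources used here, and the description field of the labels names another leaf and stage than the titles, which were followed. With bulk tissue, fewer cells of a type and less RNA per cell cannot be told apart.

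Ghd7 itself is not named by the annotation of any tested probe set and could not be used to check the genotype labels. A pair of reporter control probe sets gave a partial check. The first read 5.78 and 4.35 on the wild-type leaf arrays, 12.18 and 14.26 on the transgenic ones (log2 expression), a difference of 8.15 between the means. It read 4.41 and 4.57 in wild-type panicles and 4.50 and 4.51 in the panicles labelled OX-Ghd7HJ19. The second differed by 7.81 in leaves and by 0.27 in panicles. Both reporters were thus high on both transgenic leaf arrays and near the wild-type value on both panicle arrays labelled OX-Ghd7HJ19, so every panicle direction below is that of the libraries so labelled, and no panicle comparison can be made without them. The labelled tissues carried their markers: 3 measured genes of a list of 4 green-leaf genes lay at percentile 99.8 or higher of the wild-type leaf arrays, and 8 of 8 measured young-panicle genes had a higher percentile in panicles than in leaves of the wild type.

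The 262 probe sets had a makeup unlike that of the lower numbers. Antisense probe sets were 51.1% of them, against 4.82% of the lower-numbered OsAffx probe sets. Of the 167 numbers in the range, 143 have at least 1 probe set, and 106 of these (74.1%) hold both a sense and an antisense one, against 979 of 20209 lower numbers (4.84%). A further 11 numbers are sense only and 26 antisense only. The classes differ in kind of probe set too. The sense class has 54 _at, 66 _x_at and 8 _s_at probe sets, and the antisense class 118, 14 and 2.

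Almost none of the members has a gene name. The platform's annotation paired 1 of the 262 with a gene, OsAffx.32229.1.S1_x_at with LOC4324621, which the RefSeq gene table places on chromosome 1. Of the lower-numbered OsAffx probe sets, 445 (1.76%) were paired with 1 gene. The 9 paired probe sets nearest below the stretch, numbered 31611 to 32183, are all paired with genes of chromosome 12. The stretch was set to begin after the last of them, so the chromosome of that one follows from the rule. The 3 probe sets just outside, OsAffx.32182.1.S1_at, OsAffx.32183.1.S1_at and OsAffx.32183.1.S1_s_at, lay at percentiles 20.6 to 58.5 of the wild-type panicle arrays, and none passed the test in either tissue. Just inside, OsAffx.32184.1.S1_at, OsAffx.32185.1.S1_s_at and OsAffx.32185.1.S1_x_at lay at 20.8 to 63.7, and none of these passed either. The edge in ID number at the low end was therefore not an edge in signal.

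Levels were high for both strand classes in all 4 groups. Levels are given as percentiles within an array, because the median log2 value of a leaf array was 4.49 to 4.53 and that of a panicle array 6.13 to 6.15, so log2 levels of different tissues were not set against each other. The median sense member lay at percentile 73.9 ± 2.87 (SD, 2 arrays) in leaves of the wild type and 78.7 ± 2.50 in those of OX-Ghd7HJ19, at 87.0 ± 0.408 in wild-type panicles and at 82.5 ± 1.27 in panicles labelled OX-Ghd7HJ19. The median antisense member lay at 72.1 ± 2.08, 75.1 ± 1.44, 79.8 ± 0.406 and 74.6 ± 3.21 in the same order. Medians of the lower-numbered OsAffx probe sets were 33.5 to 38.9 for sense and 41.0 to 53.8 for antisense. In each array the median of either class was thus well above that of its lower-numbered counterpart.

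**Figure D1:**
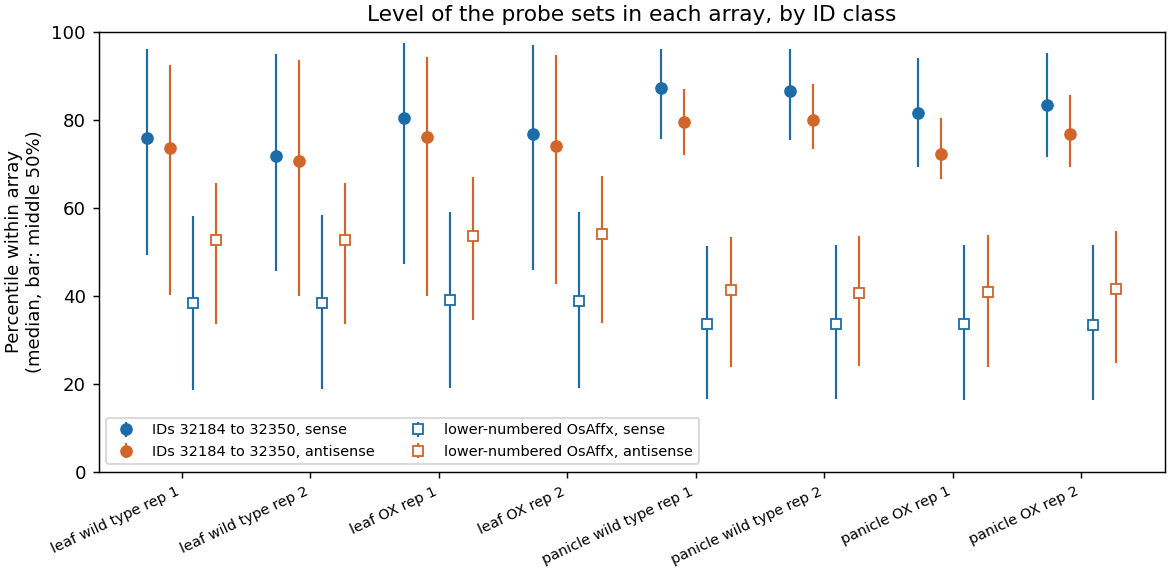
Level of the probe sets in each of the 8 arrays as the percentile within the array (vertical axis, percent); points are medians, bars span the middle 50% of the probe sets, filled circles are IDs 32184 to 32350 and open squares the lower-numbered OsAffx probe sets. In panicles the bars of the members narrow and lie wholly above 60, while in leaves they reach from about the array median or lower to above 90.

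The share of members above background followed the tissue. Background was taken in each array as the 95th percentile of the 64 reporter control probe sets, a log2 value of 5.12 to 6.22. That value lay at percentile 59.9 to 70.2 of the leaf arrays and 43.8 to 50.8 of the panicle arrays, so the bar was lower in panicles. These 64 include the pair that was high in transgenic leaves, so the shares are also given without that pair. In wild-type panicles 98.0% of sense and 99.3% of antisense members lay above it, and 96.9% and 98.1% did in panicles labelled OX-Ghd7HJ19. In wild-type leaves the shares were 62.9% and 57.8%, and in transgenic leaves 56.6% and 54.1%. Without the pair the leaf shares were 67.2% and 60.4% in wild type and 64.5% and 60.4% in transgenic plants, and the panicle shares were the same. Lower-numbered OsAffx probe sets were above it in 12.8% to 33.2% of cases for sense and 19.7% to 41.4% for antisense. Nearly every member thus lay above this background in the young panicle, and about 2 in 5 did not in the leaf. The bar lay at unlike percentiles in the tissues, and its part in that gap was not tested.

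The kind of probe set moved with the level of the sense class. In wild-type leaves, sense _at members had a median percentile of 45.1, against 90.6 for _x_at and 93.7 for _s_at members. Their panicle medians were 79.3, 92.6 and 94.2. Antisense _at members had 67.4 and 79.4 in the same tissues. The high leaf level of the sense class was thus that of probe sets marked as able to bind more than 1 transcript, and the part of such binding was not tested. Lower-numbered sense _x_at probe sets had medians of 54.5 and 46.6 there.

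Members were sorted by whether they lay above or below the array median in all 4 arrays of each tissue. A total of 172 (65.6%) were above it in both tissues, against 35.0% of all tested probe sets. Another 66 (25.2%), 29 sense and 37 antisense, were below it in every leaf array and above it in every panicle array, against 5.21% of lower-numbered sense, 2.06% of lower-numbered antisense and 9.54% of all tested probe sets. The reverse pattern was seen in 2, OsAffx.32185.1.S1_s_at and OsAffx.32185.1.S1_x_at, against 11.4% and 18.3% of the lower-numbered classes. A single member, OsAffx.32310.1.A1_at, was below the median throughout, against 53.2% and 37.1%, and 21 members were mixed. These last 3 probe sets were named after their values were seen.

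**Figure D2:**
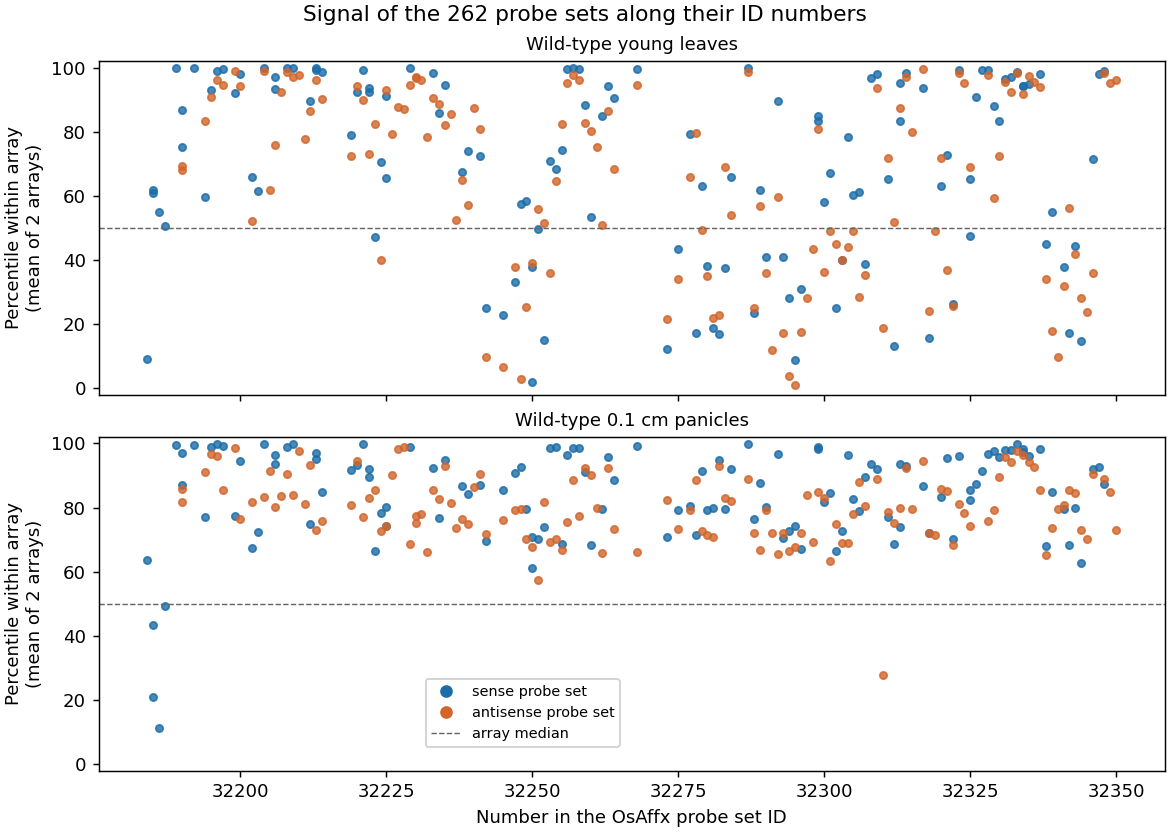
Percentile within the array (vertical axis, mean of 2 wild-type arrays) of each of the 262 probe sets against the number in its ID, for leaves (upper panel) and panicles (lower panel); blue is sense, orange antisense and the dashed line the array median. Leaf points spread from near 0 to 100 with clusters of low values around numbers 32245, 32295 and 32342, while all but 5 panicle points lie above the line.

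The strongest panicle pattern was in number 32282. Its sense probe set OsAffx.32282.1.S1_at read 2.93 and 2.68 in leaves of the wild type and 11.81 and 11.96 in its panicles, which are percentiles 16.9 and 94.7 of those arrays. The antisense probe set OsAffx.32282.1.A1_at moved from percentile 23.0 to 93.1. OsAffx.32248.1.A1_at went from 2.87 to 79.7 and OsAffx.32340.1.A1_at from 9.88 to 79.6. All 4 were well below the array median in leaves and well above it in panicles. Fewer points separated the tissues in the opposite order. The percentile in wild-type panicles minus that in leaves was -43.8 for OsAffx.32186.1.S1_at, -41.1 for OsAffx.32185.1.S1_s_at, -28.6 for OsAffx.32268.1.A1_x_at and -25.8 for OsAffx.32229.1.A1_at. Of these, the antisense members of 32268 and 32229 still lay at percentiles 66.1 and 68.7 in the panicle.

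Several members were among the brightest probe sets of the arrays in every sample. The 5 sense members with the highest mean percentile over 8 arrays were OsAffx.32209.1.S1_x_at, OsAffx.32287.1.S1_x_at, OsAffx.32204.1.S1_x_at, OsAffx.32221.1.S1_s_at and OsAffx.32189.1.S1_x_at, at 99.6 to 99.9. All 5 end in _x_at or _s_at. The first read 13.84 and 13.85 in wild-type and 13.97 and 13.96 in transgenic leaves, 14.07 and 14.07 in wild-type panicles and 13.90 and 14.00 in panicles labelled OX-Ghd7HJ19. Of the 5, only OsAffx.32221.1.S1_s_at passed the genotype test, in leaves. Near the top of the scale an array reads differences less well, and the part of that was not tested.

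The brightest antisense members were OsAffx.32199.1.A1_x_at, OsAffx.32333.1.A1_at, OsAffx.32210.1.A1_at, OsAffx.32317.1.A1_at and OsAffx.32196.1.A1_at, at mean percentiles of 95.3 to 98.7. The last read 9.99 and 10.06 in wild-type and 10.36 and 10.44 in transgenic leaves. It then read 12.17 and 12.16 in wild-type panicles and 11.21 and 11.66 in panicles labelled OX-Ghd7HJ19, and this fall of 0.73 on the log2 scale passed the test (limma, adjusted p = 0.0394). The groups did not overlap in either tissue. The other four did not pass in either tissue, and OsAffx.32210.1.A1_at came nearest, with a panicle change of -0.93 (limma, adjusted p = 0.0583).

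OsAffx.32229.1.S1_x_at, the only member with a gene name, was also near the top of the scale. It read 13.42 and 13.38 in wild-type and 13.54 and 13.41 in transgenic leaves, 13.19 and 13.16 in wild-type panicles, and 12.94 and 13.12 in panicles labelled OX-Ghd7HJ19. Its change was 0.08 ± 0.12 (log2 ± SE) in leaves and -0.14 ± 0.12 in panicles. Neither passed (limma, adjusted p = 0.817 and 0.661), which at this level does not show that its RNA did not differ. Its ID ends in _x_at, so its signal cannot be assigned to LOC4324621 alone.

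The members whose pattern over the 8 arrays was most like that of OsAffx.32209.1.S1_x_at, after subtracting each tissue's mean, were all antisense. They were OsAffx.32195.1.A1_at (Pearson r = 0.980), OsAffx.32194.1.A1_at (0.968), OsAffx.32332.1.A1_at (0.961), OsAffx.32196.1.A1_at (0.953) and OsAffx.32334.1.A1_at (0.937). These are descriptions over 8 arrays that share their normalization. The reference member lies near the top of the scale and neither of its genotype changes passed, so the likeness says little about a shared pattern.

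Genotype was compared within each tissue with limma on all 57194 probe sets, with p-values adjusted over all of them, and "rose" and "fell" are used at an adjusted p under 0.05. In panicles, 88 of the 262 members (33.6%) fell in the arrays labelled OX-Ghd7HJ19 and 2 rose. Among all tested probe sets 1.84% fell and 1.05% rose. Among the lower-numbered OsAffx, 1.49% of sense and 0.658% of antisense probe sets fell, and 0.541% and 0.411% rose. The falls came from 39 sense and 49 antisense members. Fewer members fell without either wild-type panicle array, where fewer of all tested probe sets passed as well. The median change of the members was -0.51 without the first and -0.44 without the second. In 67 of the 88 the change was below -1 on the log2 scale and in 15 below -2.

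The panicle shift was not limited to members that passed. The median change over the 262 was -0.46 on the log2 scale, -0.27 for sense and -0.63 for antisense members, against 0.02 over all tested probe sets. In 201 members the change was below 0 and in 60 above. Both arrays labelled OX-Ghd7HJ19 lay below both wild-type arrays in 163 members (62.2%), against 24% of all tested probe sets and 19.6% and 12.1% of the lower-numbered sense and antisense OsAffx. They lay above both in 31 (11.8%), against 27.3%, 23.7% and 29.3%. The spread among members was wide, from -2.77 to 1.92.

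**Figure D3:**
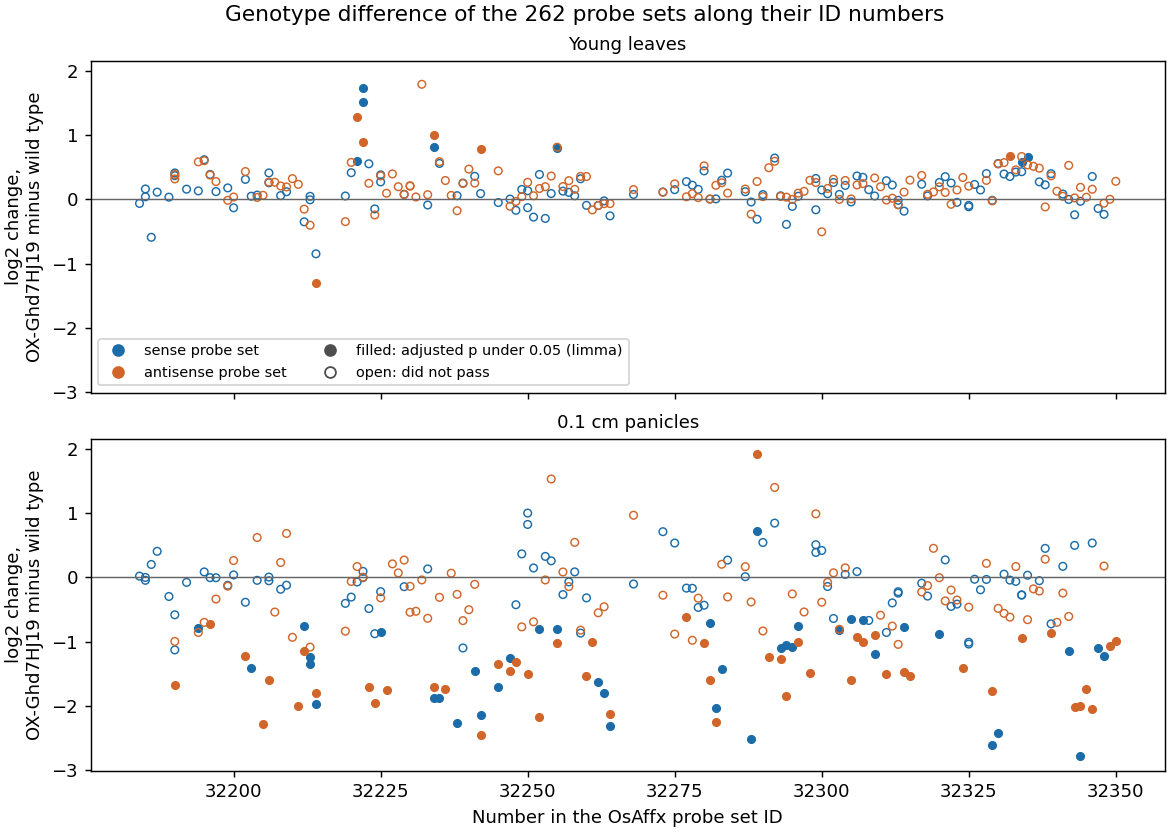
Log2 change, OX-Ghd7HJ19 minus wild type (vertical axis), of each member against the number in its ID, for leaves (upper panel) and panicles (lower panel); blue is sense, orange antisense, and filled points passed the limma test at an adjusted p under 0.05. In panicles 88 filled points lie below 0 along the whole range and 2 above, and in leaves 12 lie above 0 and 1 below.

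The largest panicle falls came in neighbouring and separate numbers and in both classes. OsAffx.32344.1.S1_at read 7.40 and 7.52 in wild-type panicles and 4.90 and 4.48 in those labelled OX-Ghd7HJ19. The fitted fall was 6.82-fold (change -2.77 ± 0.23, limma, adjusted p = 0.000528). The groups were far apart, but the lower values lay within the range of the reporter controls, so the size of the fall is not well read. In leaves the same probe set was dark in both genotypes, at 2.34 to 2.99. The antisense probe set of this number, OsAffx.32344.1.A1_at, fell as well, from 8.80 and 9.07 to 7.17 and 6.72.

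Numbers 32329 and 32330 hold sense probe sets that were among the brighter ones in wild-type panicles. OsAffx.32329.1.S1_x_at read 12.57 and 12.69 in wild type against 10.06 and 9.99, a fall of 6.08-fold (change -2.60 ± 0.20, limma, adjusted p = 0.00031). OsAffx.32330.1.S1_x_at read 12.10 and 12.18 against 9.81 and 9.64, a fall of 5.34-fold (change -2.42 ± 0.15, adjusted p = 0.000105). In both, replicates differed by less than 0.2 and the groups lay more than 2 log2 units apart. The antisense partner of 32329 fell by 1.76, whereas that of 32330 changed by -0.48, which did not pass (limma, adjusted p = 0.292).

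Among the other large falls, OsAffx.32288.1.S1_at read 9.54 and 9.23 against 6.84 and 6.91 (change -2.51 ± 0.17, limma, adjusted p = 0.000133). Its antisense partner read 8.77 and 8.81 against 8.35 and 8.48, a change of -0.38 that did not pass. OsAffx.32242.1.A1_at, the antisense member with the largest fall, read 8.72 and 8.76 against 6.37 and 6.20 (change -2.46 ± 0.12, adjusted p = 3.91e-05). Its sense partner fell too, by 2.14. OsAffx.32264.1.S1_x_at read 10.88 and 11.00 against 8.83 and 8.42 (change -2.32 ± 0.18, adjusted p = 0.0003), and its antisense partner fell by 2.13. In each of these the groups did not overlap.

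The 2 panicle rises belong to 1 number, 32289. OsAffx.32289.1.A1_at read 7.91 and 8.13 in wild-type panicles and 9.34 and 10.54 in those labelled OX-Ghd7HJ19, a change of 1.92 ± 0.35 (limma, adjusted p = 0.0241). The upper replicates were more than 1 log2 unit apart. OsAffx.32289.1.S1_at read 10.97 and 10.71 against 11.66 and 11.46, a change of 0.72 ± 0.13 (adjusted p = 0.0239). Both calls were lost when any 1 of several arrays was left out, among them either panicle wild-type array (adjusted p = 0.170 and 0.135 for antisense, 0.0699 and 0.232 for sense) and, for sense, either panicle array labelled OX-Ghd7HJ19 (0.103 and 0.0625). Without either transgenic leaf array, which enters only the shared spread, they stood at 0.0549 and 0.0518. The antisense call was lost without the second panicle array labelled OX-Ghd7HJ19 as well (0.0876).

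**Figure D4:**
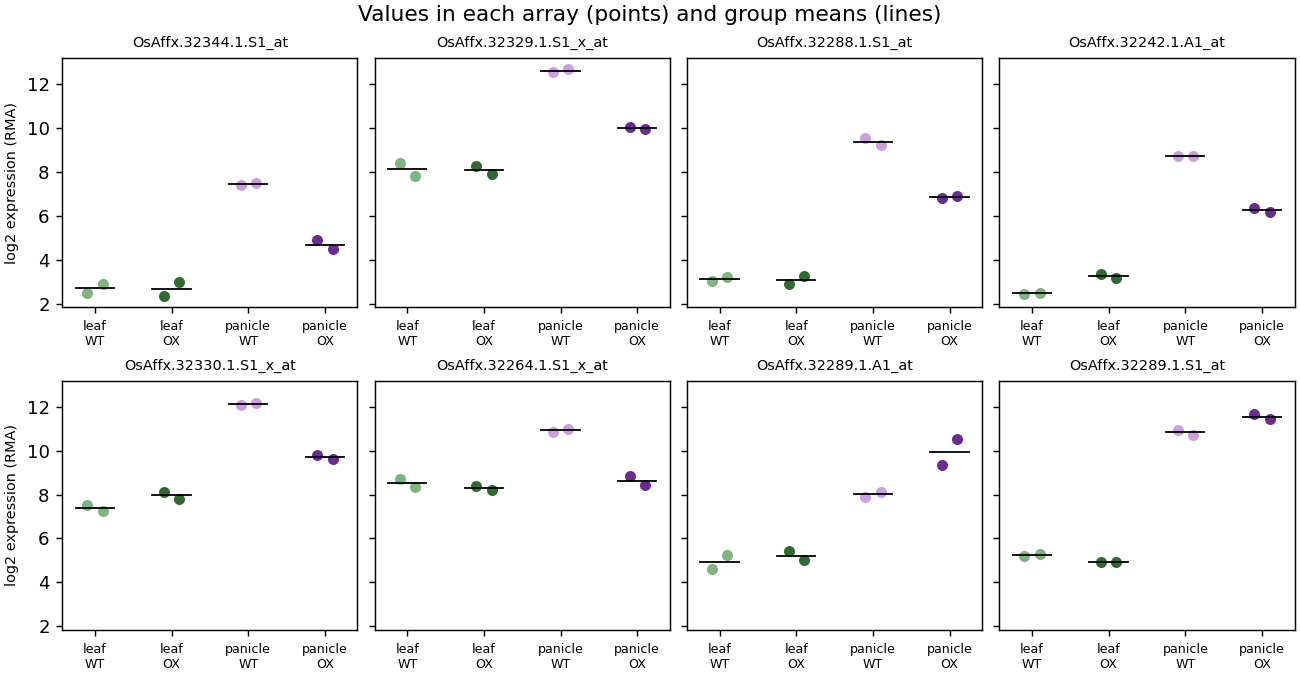
Deposited log2 expression (vertical axis) of the 6 members with the largest panicle fall and the 2 that rose, with 1 point per array and a line at the mean of each group of 2 arrays. In the first 6 panels both panicle points labelled OX lie below both wild-type panicle points by 2 log2 units or more, and in the panels of number 32289 they lie above.

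In leaves the same members behaved otherwise. There 12 members rose (4.58%) and 1 fell (0.382%), against 1.37% and 3.05% of all tested probe sets. Of the lower-numbered OsAffx, 0.616% of sense and 0.164% of antisense probe sets rose, and 0.853% and 0.0822% fell. The rises were in 7 sense and 5 antisense members. The median change over the 262 was 0.16 on the log2 scale, 0.12 for sense and 0.20 for antisense members. It was 0.03 over all tested probe sets, and 0.06 and 0.10 over the lower-numbered sense and antisense OsAffx. Of the members 206 lay above 0 and 56 below. Of the lower-numbered OsAffx, 15449 sense probe sets lay above 0 and 8531 below, and 897 antisense ones above and 317 below. Transgenic arrays lay above both wild-type arrays in 89 members (34.0%), against 25.2% of all tested probe sets and 29.3% and 40% of the lower-numbered sense and antisense OsAffx. They lay below both in 16 (6.11%), against 18.3%, 11.5% and 8.14%. With only the 4 leaf arrays in the limma fit none of the 262 passed, beside 0.568% of all tested probe sets, the lowest adjusted p being 0.0549. An unadjusted p under 0.05 was seen in 53 members. The like share over all probe sets was not counted, so this number is not read as a leaf difference of the members.

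The leaf rises gathered in numbers 32221 and 32222. OsAffx.32222.1.S1_s_at read 8.83 and 9.05 in the wild-type leaf arrays and 11.00 and 10.33 in the transgenic ones, a change of 1.73 ± 0.20 (limma, adjusted p = 0.00196). OsAffx.32222.1.S1_at, a second sense probe set of the same number, read 9.14 and 9.44 against 11.11 and 10.50 (change 1.52 ± 0.21, adjusted p = 0.0046). OsAffx.32221.1.A1_s_at read 8.38 and 8.51 against 9.92 and 9.55 (change 1.29 ± 0.17, adjusted p = 0.00368). No wild-type value reached a transgenic one in any of them.

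The remaining probe sets of these numbers also rose in leaves. OsAffx.32222.1.A1_at read 6.29 and 6.04 against 7.16 and 6.95 (change 0.89 ± 0.16, limma, adjusted p = 0.0138). This call was lost without the second wild-type leaf array (0.0749) or either transgenic one (0.0988 and 0.0542). OsAffx.32221.1.S1_s_at, among the brightest members of all, read 12.41 and 12.33 against 13.02 and 12.93 (change 0.60 ± 0.11, adjusted p = 0.02). All 5 rose in leaves, and their panicle changes were -0.07 to 0.17, with none past the threshold. Since 3 of the 5 end in _s_at, the same transcript may be counted by more than 1 of them.

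Number 32234 moved in opposite directions in the tissues. OsAffx.32234.1.A1_x_at read 8.02 and 8.41 in the wild-type leaf arrays and 9.03 and 9.42 in the transgenic ones (change 1.01 ± 0.18, limma, adjusted p = 0.0143). In panicles it read 10.13 and 10.33 against 8.59 and 8.47, a fall of 1.70. OsAffx.32234.1.S1_x_at rose in leaves by 0.81 ± 0.13 (adjusted p = 0.00752), from 7.67 and 7.84 to 8.46 and 8.67, and fell in panicles by 1.88. The leaf calls of both were lost without the second transgenic leaf array (adjusted p = 0.112 and 0.0657), and that of the antisense set without the first wild-type leaf array (0.0567).

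The single leaf fall was OsAffx.32214.1.A1_at, which read 8.26 and 8.75 in wild-type and 7.19 and 7.22 in transgenic leaves (change -1.31 ± 0.16, limma, adjusted p = 0.00228). It fell in panicles too, from 9.30 and 9.37 to 7.54 and 7.53. Its sense partner OsAffx.32214.1.S1_x_at read 11.11 and 11.93 against 10.68 and 10.67 in leaves, a change of -0.84 that did not pass, and fell by 1.97 in panicles. The antisense probe set of this number was thus the only member that fell in both tissues. A larger leaf change than any of these, 1.79 in OsAffx.32232.1.A1_at, did not pass (adjusted p = 0.0794), with transgenic values of 7.80 and 9.28.

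Of the 88 members that fell in panicles, 83 did not pass in leaves, 4 rose there and 1 fell. Their median leaf change was 0.07, with 62 above 0 and 26 below. In 44 of the 88 the lower leaf group lay within the reporter range, where a change could hardly be seen. Of the 12 that rose in leaves, 4 fell in panicles and 8 did not pass. The difference of the genotype effects, panicle minus leaf, was tested as such. It passed for 83 members, 82 with the lower value in panicles, 35 sense and 47 antisense, and 1 with the higher. Over all tested probe sets 1.74% passed in the first direction and 2.1% in the second. For the lower-numbered OsAffx these shares were 1.04% and 0.658% of sense and 0.493% and 0.329% of antisense probe sets.

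By fitted value, the largest differences were those of OsAffx.32242.1.A1_at at -3.24 ± 0.17 (limma, adjusted p = 0.000157), OsAffx.32330.1.S1_x_at at -2.98 ± 0.22 and OsAffx.32344.1.S1_at at -2.74 ± 0.33. The leaf values of OsAffx.32242.1.A1_at, 2.43 and 2.49 in wild type and 3.34 and 3.15 in transgenic plants, passed the leaf test (adjusted p = 0.00797) but lie within the reporter range, as do the leaf values and the lower panicle values of OsAffx.32344.1.S1_at. The order of the 3 is therefore not settled by these values. The transgenic leaf values of OsAffx.32289.1.S1_at, 4.94 and 4.92, also lie within the reporter range. This member was the one with a higher value in panicles (1.03 ± 0.19, limma, adjusted p = 0.0197). That call was lost without the second wild-type leaf array (limma, adjusted p = 0.0508), without either transgenic leaf array (0.0635 and 0.0742), without the second wild-type panicle array (0.106) and without the first panicle array labelled OX-Ghd7HJ19 (0.0621). For number 32222 the difference passed for both sense probe sets, at -1.63 and -1.52. It did not for the antisense one, at -0.89 (limma, adjusted p = 0.0642).

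Members that share a number share a predicted gene, so they are not independent of each other. In the 13 cases where 1 number has several probe sets of the same class, their leaf changes differed by a median of 0.109 log2 units and at most by 0.486. Panicle changes differed by a median of 0.107 and at most by 0.680. Probe sets built on the same prediction and strand thus mostly moved alike.

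Over the 106 numbers with both classes, sense and antisense changes were correlated with a Pearson r of 0.687 in leaves and 0.428 in panicles, and wild-type percentiles with 0.811 and 0.355. These are descriptions over 106 numbers that share arrays and normalization. In panicles both classes held a member that fell in 20 numbers, the antisense class alone in 17, the sense class alone in 16 and neither in 53. The antisense change lay below the sense change in 57 of 106 in panicles and in 48 of 106 in leaves. The medians over these numbers were -0.35 for sense and -0.62 for antisense in panicles. Numbers in which 1 class alone passed as fallen thus outnumbered those in which both did. A class without a call may only have missed the threshold, and the difference between classes was not tested.

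**Figure D5:**
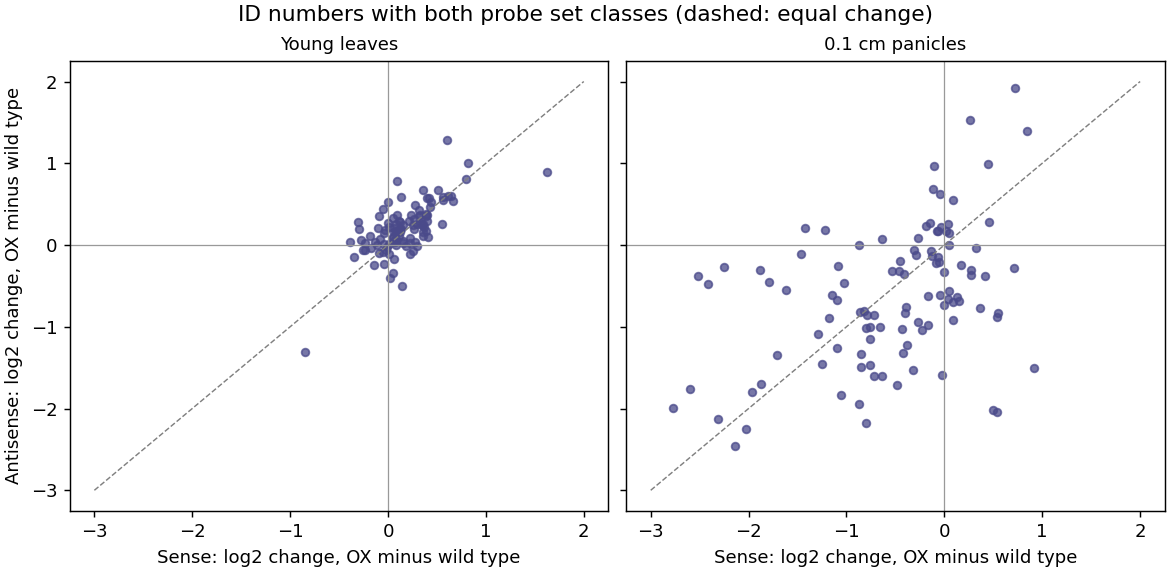
Log2 change, OX minus wild type, of the sense (horizontal axis) and antisense (vertical axis) probe sets of the 106 numbers that hold both, for leaves and panicles; where a class has several probe sets their mean is plotted, and the dashed line marks equal change. Leaf points gather around 0 along the line (r = 0.687), and panicle points spread to the lower left with many far from the line (r = 0.428).

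The numbers with the widest gap between classes are given side by side, since probe sets differ in binding. The sense value was far above the antisense one in 32229, 32268, 32221, 32292 and 32253, by 3.38 to 4.29 log2 units over the 8 arrays. The antisense value was above the sense one in 32199, 32278, 32342, 32260 and 32223, by 2.37 to 3.22. The calls differed between the classes in 3 of these 10 numbers, and the difference between classes was not tested. In number 32223 the panicle change was -1.71 for antisense, which fell, and -0.48 for sense, which did not pass. Number 32260 was alike, with -1.53 and -0.32. In 32342 the sense member fell, with -1.15, and the antisense change of -0.61 did not pass. Of the remaining numbers, 32221 rose in leaves in both classes, and the others had no call in either class.

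Level and change varied along the numbers. In windows of 10 numbers, the median leaf wild-type percentile was 85.6 to 95.6 in each window from 32190 to 32239 and 94.3 in 32330 to 32339. It was 33.1 in 32240 to 32249, 33.5 to 48.9 in the 4 windows from 32270 to 32309, and 39.8 in 32340 to 32349. Panicle medians were 72.4 to 95.9 in all complete windows. In the shorter first window, the 6 members of 32184 to 32189, the median was 58.0 in leaves and 46.3 in panicles. The leaf-dark numbers thus lay in runs, and only that first window lay below the array median in panicles.

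The panicle change also differed between windows. Its median was -1.32 in 32240 to 32249, with 8 of 13 members fallen, -1.15 in 32210 to 32219, with 7 of 11, and -1.08 in 32340 to 32349, with 9 of 16. It was -0.07 in 32250 to 32259 and -0.14 in 32220 to 32229, the window with 5 of the 12 leaf rises. At the ends of the range, the 6 members of 32184 to 32189 held no call in either tissue, while the last 3 members, OsAffx.32348.1.S1_at, OsAffx.32349.1.A1_at and OsAffx.32350.1.A1_at, all fell in panicles, by 1.22, 1.07 and 0.98. By tissue pattern, 34 of the 66 members that were below the array median in leaves and above it in panicles fell in panicles (51.5%), against 4.36% of all tested probe sets of that pattern. Of the 172 above it in both, 49 fell (28.5%), against 1.49%.

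Several other measures moved with the panicle result, and their part in it was not tested. The panicle arrays labelled OX-Ghd7HJ19 differed from each other in these members: replicate 1 was below replicate 2 in 231 of 262 (88.2%), by a median of 0.28, and in 51.1% of all tested probe sets. Replicate 1 minus replicate 2 had a median of -0.48 over the antisense members, the class with the lower median panicle change. The median SD between replicates was 0.210 in that group for members and 0.0992 for all probe sets, against 0.0714 and 0.0664 in wild-type panicles. Without replicate 1 the median panicle change of the members was -0.27, and without replicate 2 it was -0.70. Some members rose without replicate 1, and falls outnumbered rises with either replicate left out. The median change was below 0 with either array alone, and its size depended on which was kept. The count of falls moved more with the wild-type panicle arrays, without which fewer of all tested probe sets passed as well.

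The array's control for 18S ribosomal RNA read 12.31 and 12.51 in wild-type panicles and 11.08 and 10.98 in those labelled OX-Ghd7HJ19, a difference of -1.38. In leaves its groups were 12.18 and 11.72 against 12.29 and 12.35. The 28S control differed by -0.69 in panicles with overlapping groups. Actin signal at the 3′ end minus the 5′ end, a measure of RNA integrity, was 2.24 and 2.37 in wild-type panicles and 2.34 and 2.76 in the others, which also overlap. The 18S control was thus lower in both panicle arrays labelled OX-Ghd7HJ19, the arrays in which the members fell.

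Cell type markers moved in panicles as well. All 3 measured green-leaf genes fell there, OsrbcS by 1.34, RCABP69 by 1.79 and GOS5 by 0.73, with percentiles of 55.5 to 77.8 in wild type and 28.3 to 68.4 in the arrays labelled OX-Ghd7HJ19. Of the 8 young-panicle genes 6 fell, among them OsMADS7 by 3.22, FZP rose by 0.99 and OSH1 did not pass, with percentiles of 65.3 to 98.9 in wild type and 51.0 to 99.2 in the others. In leaves none of these 11 passed. Of the genes encoded in organelles, 0 of 25 on the plastid list and 1 of 31 on the mitochondrial list had a probe set paired with them, and neither that one nor any other organelle gene was paired with a member. The mitochondrial cob, which encodes cytochrome b, read 10.28 and 10.44 against 8.74 and 8.97 in panicles, a change of -1.51 (limma, adjusted p = 0.00315). The plastid atpI, a subunit of ATP synthase that was added after its values were seen, changed by -0.00. It read 13.92 and 13.86 against 13.85 and 13.91, near the top of the scale, where an array reads differences less well. The cob set ends in _s_at and the atpI set in _x_at, so neither signal can be assigned to that gene alone.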

How the data were processed

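The authors deposited log2 expression values from RMA, per the submitters' processing notes. The sources used here give neither its version nor a genome build. The method corrects background, quantile normalizes arrays and reduces the probes of a set to 1 value. Array medians differed by tissue, so genotype effects were taken within a tissue. Control probe sets (123 AFFX and 64 reporter) were left out, which left 57194. The 262 members, the lists and the rules were chosen with earlier results of these data known.

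A mean for each group was fitted with limma 3.58.1 (R 4.3.3) over all 8 arrays (4 residual degrees of freedom, eBayes), with two-sided p-values adjusted by Benjamini-Hochberg over all 57194 probe sets in each contrast. Groups and replicates came from the titles. The number of arrays limits the precision, and the labels call the replicates biological without saying what plants each came from, so p-values measure the spread between these samples. Named members were, per tissue, up to 6 rises and falls among calls with groups that do not overlap, those of highest level, of largest tissue, strand or interaction difference, any with a gene name, and those at the ends. Their strand partners and a few singled out by value were added afterwards. The scripts were tested on simulated data. Tables and figures used Python 3.11.15, pandas 2.3.3 and matplotlib 3.10.9. The alternatives tried were 2 normalizations, a filter on dim probe sets, a fit on 1 tissue, another prior, array weights, a replicate block, a test against 1.2-fold, and leaving out each array. Members with neither _s_at nor _x_at were also taken alone for the counts, and 2 reporters were left out of the background, both chosen after seeing the data.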

Additional observations from a re-analysis of the deposited data

Results flagged for a closer look

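A pair of reporter control probe sets, which lie outside the tested probe sets, stood far above wild type in transgenic leaves, by 8.15 and 7.81 on the log2 scale. In the panicles labelled OX-Ghd7HJ19 they differed from wild type by 0.01 and 0.27.

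The genotype effect differed between the tissues in 83 of the 262 members (limma, interaction contrast, adjusted p under 0.05). Among the named members the difference, panicle effect minus leaf effect, was -3.24 for OsAffx.32242.1.A1_at, -2.98 for OsAffx.32330.1.S1_x_at, -2.74 for OsAffx.32344.1.S1_at, -2.71 for OsAffx.32234.1.A1_x_at, -2.69 for OsAffx.32234.1.S1_x_at and -2.59 for OsAffx.32329.1.S1_x_at. It was -2.47 for OsAffx.32288.1.S1_at, -2.47 for OsAffx.32282.1.A1_at, -2.06 for OsAffx.32264.1.S1_x_at and -2.04 for OsAffx.32282.1.S1_at. Smaller values were -1.63 for OsAffx.32222.1.S1_s_at, -1.52 for OsAffx.32222.1.S1_at, -1.29 for OsAffx.32248.1.A1_at, -1.26 for OsAffx.32350.1.A1_at, -1.12 for OsAffx.32221.1.A1_s_at, -1.11 for OsAffx.32196.1.A1_at and -0.99 for OsAffx.32348.1.S1_at. The value of OsAffx.32289.1.S1_at was 1.03, a call lost in 6 of the alternatives.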

How the results depend on the processing

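The counts of members that passed were 13 in leaves, 90 in panicles and 83 for the difference. Of all tested probe sets 4.42%, 2.89% and 3.84% passed. In leaves the count was 20 with dim probe sets left out, beside 9.7% of the 28597 probe sets then tested. It was 21 with an intensity trend and a robust prior, beside 5.12% of all probe sets. Against a 1.2-fold change it was 5, beside 1.77%. With only the 4 leaf arrays, which leaves fewer residual degrees of freedom, it was 0, beside 325 of all probe sets (0.568%, limma). There 53 members had an unadjusted p under 0.05. The like share over all probe sets was not counted, so that number says nothing about the members in particular. With only the 4 panicle arrays 59 passed, beside 1.21% of all tested probe sets. Of the 172 members with neither _s_at nor _x_at, 5, 68 and 62 passed. In panicles a far smaller share passed among the lower-numbered OsAffx probe sets of that kind, in the sense and in the antisense class. The like share over all probe sets was not counted. Leaving out 1 array gave 7 to 18 in leaves, lowest without the second and 8 without the first transgenic array. It gave 48 to 90 in panicles, lowest without the second and 54 without the first wild-type panicle array, and 40 to 78 for the difference, which was 40 and 45 without those arrays and 54 without the first transgenic leaf array. Without the arrays named here, fewer of all tested probe sets passed as well. In leaves more of all tested probe sets passed without the first wild-type leaf array, where the count of members was highest. These moves are therefore not read as particular to the members, and their cause was not tested. With the replicate number as a block, 10, 91 and 74 passed, beside 3.18%, 1.92% and 2.56% of all tested probe sets. Same-numbered arrays had deviations correlated by 0.00716 in leaves and 0.0574 in panicles, so the numbers were not taken to pair samples. Over the named members, 258 of the values kept their side of the threshold, 38 lost it and 0 reversed; the 6 largest panicle falls kept it wherever they were tested (adjusted p up to 0.0205), OsAffx.32344.1.S1_at and OsAffx.32242.1.A1_at being removed by the filter on dim probe sets, and every named leaf call was lost with only the 4 leaf arrays (0.0549 to 0.131). The difference of OsAffx.32289.1.S1_at was lost in 6 settings (0.0508 to 0.106). Among OsAffx probe sets only, median percentiles in the order wild-type and transgenic leaves, wild-type panicles and panicles labelled OX-Ghd7HJ19 were 90.9, 93.9, 97.9 and 97.1 for sense and 89.3, 91.3, 96.0 and 94.4 for antisense. Without _s_at and _x_at they were 45.1, 45.4, 79.3 and 75.6 for sense and 67.4 and 68.7 for antisense leaves, and the shares above the reporter floor were 36.1%, 29.6% and, in panicles labelled OX-Ghd7HJ19, 96.3% for sense, and 53.0%, 49.2% and, in wild-type panicles, 99.2% for antisense. With the floor at the array median the shares were 73.4%, 73.4%, 97.3% and 96.5% for sense and 66.0% and 68.3% for antisense leaves. With the floor taken without the 2 reporters high in transgenic leaves, chosen after seeing the data, shares were 64.5% for sense in transgenic leaves and 60.4% and 60.4% for antisense in wild-type and transgenic leaves. Signal near the reporter range, in about 2 in 5 leaf values, limits what a leaf difference can show.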
